A study of Drosophila melanogaster with 20 samples.

Results

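Fragments of Drosophila embryo RNA from cells sorted on Prospero were compared between the marker-positive fraction, which the labels name as enriched for neuroblasts, and the marker-negative fraction of the same stage, 6 to 8 h after egg laying. The comparison used 4 of 20 libraries, chosen by their titles: pros-positive 1 and 2 against pros-negative 1 and 2. Embryos of both fractions were dissociated to single cells, fixed in 4% formaldehyde, immunostained and sorted by flow cytometry, and the crosslinks were then reversed before RNA extraction. No strain, genotype or treatment is given in the labels, and the 2 libraries of each fraction are described as biological duplicates. The other 16 libraries were elav and repo sorts, which the labels name for neurons and glia. They entered the statistical fits to estimate the spread, and those of the same stage served as a comparison.

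Neuroblasts are the neural stem cells of the fly. They divide asymmetrically and pass Prospero, a homeodomain transcription factor that ends self-renewal, to the ganglion mother cell, which divides once more to give neurons or glia. Prospero is also made in sensory organ lineages and in some cells outside the nervous system, so a Prospero sort takes in progeny as well as stem cells. A microRNA (miRNA) is cut from a short RNA hairpin and lowers the output of mRNAs that carry matching sites, and each hairpin was 1 feature in the deposited tables, with both arms counted together.

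The 4 libraries held 24501421 and 21327215 counts in the pros-positive and 8007325 and 16719924 in the pros-negative fraction. Hairpins took 7770112 and 8825221 of them in the positive and 2211905 and 5403601 in the negative libraries, or 27.6 to 41.4%. Values below are CPM, counts scaled to a library of fixed size. The divisor was the total of hairpin counts for hairpins and of all counts outside hairpins for the other features. Each total was first multiplied by a TMM factor, the scaling factor of the fit. For hairpins the factors were 0.761 and 0.676 (pros-positive 1 and 2) and 0.827 and 0.780 (pros-negative 1 and 2). Hairpin CPM are therefore not shares of the hairpin counts. Duplicates correlated at 0.980 (positive) and 0.986 (negative) over the log2 CPM of hairpins. Over the other features it was 0.881 and 0.921. Library pros-positive 1 stood apart in a few snoRNA, as described with those RNAs. Each fit was a quasi-likelihood model in edgeR, and a feature passed the test at an adjusted p (Benjamini-Hochberg) under 0.05. Changes are log2 fold changes, positive over negative, with the standard error of the fit and n = 2 libraries per fraction.

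The sort was checked with fragments of its own marker. Fragments of pros stood at 203 and 229 CPM in the positive and 12.5 and 12.8 CPM in the negative libraries, a log2 change of 4.09 ± 0.38 (edgeR adjusted p = 3.65e-06). The fractions did not overlap. Fragments of repo, the glial marker, were at 8.48 and 6.54 against 2.69 and 4.75 CPM, again without overlap, but did not pass the test (0.99 ± 0.38, edgeR adjusted p = 0.178). In mixed cell fractions such as these, fewer cells of a type and less RNA per cell cannot be told apart.

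Of the 237 hairpins, 148 had enough counts over the 20 libraries to be tested. The other 89 had too few. Over all 237, 52 had no count in any of the 4 pros libraries after rounding (43 before it). The tested mir-4957, mir-4972 and mir-4973 were among the 52. A total of 11 hairpins passed the test, 7.43% of those tested: 7 were higher in the pros-positive fraction (4.73%) and 4 were lower (2.7%). The median change over all 148 was -0.25, and 95 hairpins lay within 1 log2 unit of 0. Both positive libraries lay above both negative ones for 28 hairpins (18.9%) and below them for 54 (36.5%). The number that passed depended on the scaling factors: it was 14 (7 higher and 7 lower) with the total hairpin count as library size, 30 (5 higher and 25 lower) with TMM factors computed after the filter on low counts, and 0 with TMM factors from all features, where 9 hairpins had an unadjusted p under 0.05. The last of these settings, TMM after the filter and TMM from all features, moved the median change of all hairpins by -0.71 and 0.38, and directions below are relative to the scaling stated.

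**Figure D1:**
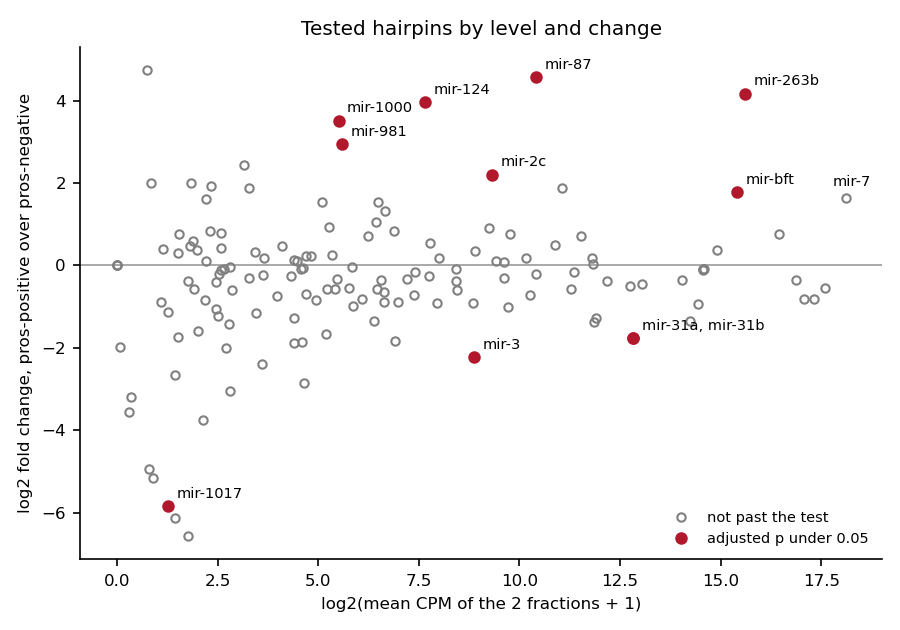
Each point is 1 of the 148 tested hairpins, with the log2 of its mean CPM over both fractions plus 1 on the horizontal axis and its log2 fold change, pros-positive over pros-negative, on the vertical axis. Filled points passed the test; mir-263b combines a high level with a change of 4.17, while mir-7, the most abundant hairpin, changed by 1.63 and did not pass.

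Among the 7 higher hairpins the largest changes were those of mir-87, mir-263b, mir-124 and mir-1000. mir-87, which is known from dendrite regeneration in fly sensory neurons, stood at 2994 and 2216 CPM in the positive libraries and at 101 and 119 CPM in the negative ones. Both positive libraries were far above both negative ones, with a log2 change of 4.57 ± 0.52 (edgeR adjusted p = 9.71e-07). The hairpin lies on the minus strand of chromosome 2L at 9950418 to 9950516 (BDGP6) and shares no exon with another gene.

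mir-263b, which protects sensory bristle precursors from cell death, was the most abundant of the hairpins that passed. It held 101788 and 88135 CPM in the positive against 6256 and 4327 CPM in the negative libraries. Again the fractions did not overlap, and the log2 change was 4.17 ± 0.62 (edgeR adjusted p = 4.7e-05). Its hairpin lies within meru at 15843406 to 15843495 on the minus strand of chromosome 3L. Its relative mir-bft (mir-263a, bereft), which acts with it in bristle precursors, was at 68928 and 66195 against 23387 and 16096 CPM. That was a smaller change, of 1.77 ± 0.53 (edgeR adjusted p = 0.0392), again with no overlap.

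mir-124, a conserved miRNA of the central nervous system, stood at 301 and 451 CPM in the positive and 20.8 and 27.0 CPM in the negative libraries. The positive libraries were the higher pair, by 3.97 ± 0.69 (edgeR adjusted p = 3.06e-04). It lies in an exon of lncRNA:CR45919, at 17566370 to 17566469 on the plus strand of 2L. mir-1000, a neuronal miRNA that limits the vesicular glutamate transporter, was scarcer, with 74.8 and 89.1 against 7.65 and 6.64 CPM. It was higher by 3.52 ± 0.81 (edgeR adjusted p = 0.00842), on 442 and 532 counts against 14 and 28.

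The remaining hairpins with higher values were mir-981 and mir-2c. mir-981 stood at 97.8 and 70.5 CPM against 12 and 9.97 CPM (2.94 ± 0.88, edgeR adjusted p = 0.0392). mir-2c belongs to the K-box family, whose members repress pro-apoptotic genes such as reaper, grim and sickle. It was at 604 and 1491 CPM in the positive and 224 and 230 CPM in the negative libraries (2.21 ± 0.55, edgeR adjusted p = 0.0131). Its 2 positive libraries differed more from each other than those of the other 6 higher hairpins, and without pros-positive 2 its change was 1.41 (adjusted p = 0.309).

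**Figure D2:**
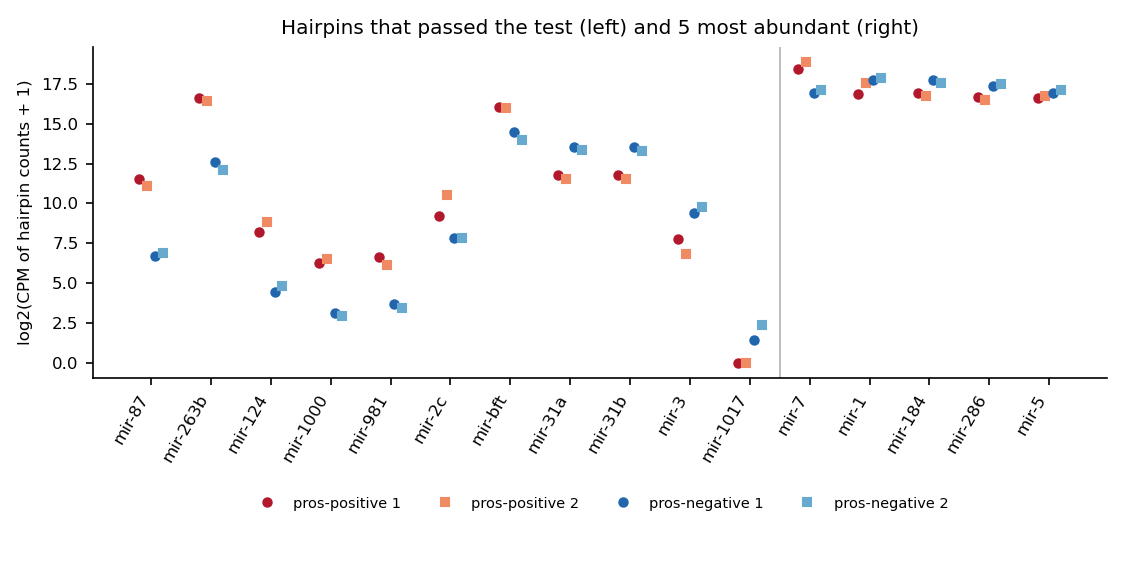
Points are single libraries, with the log2 of hairpin CPM plus 1 on the vertical axis. The 11 hairpins that passed the test stand left of the line and the 5 most abundant hairpins right of it. In each of the 11 the libraries of the fractions are apart, and mir-1017 sits at 0 in both pros-positive libraries.

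On the lower side, mir-3 was at 220 and 112 CPM in the positive and 684 and 868 CPM in the negative libraries, a change of -2.23 ± 0.63 (edgeR adjusted p = 0.0268). It is 1 of 8 hairpins of the early zygotic mir-309 cluster, known for clearing maternal mRNAs. mir-31a and mir-31b share reads, since their sequences are alike, and count as 1 observation. mir-31a held 3614 and 2986 against 12088 and 10322 CPM (-1.76 ± 0.45, edgeR adjusted p = 0.0132), and mir-31b had nearly the same values. For all 3 hairpins the negative libraries were the higher pair.

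mir-1017, a mirtron within nAChRalpha2, had 0 counts in both positive libraries and 3 and 17 counts in the negative ones. Against a floor of 3 counts over the positive fraction it was at least 13.1-fold lower (edgeR adjusted p = 0.0116). It lies below the 10 CPM that the rule for named hairpins asks for and was singled out after its values were seen. mir-975 had a like pattern, 0 and 0 against 5 and 29 counts, and did not pass (edgeR adjusted p = 0.0988).

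Only mir-87, mir-263b and mir-124 passed whichever of the 4 libraries was left out, with log2 changes of 4.33 to 4.77, 3.92 to 4.46 and 3.64 to 4.23. mir-1000 no longer passed without pros-negative 1 (adjusted p = 0.111) or pros-negative 2 (adjusted p = 0.146). mir-2c passed only without pros-positive 1, and mir-1017 only without pros-negative 1. mir-981, mir-bft, mir-3, mir-31a and mir-31b passed in none of these fits, in which the remaining library of a fraction was assumed to vary like the other groups, and their largest adjusted p was 0.227 to 0.356. Their directions did not change.

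The most abundant hairpin was mir-7, which acts in feedback loops of photoreceptor and sensory organ fate. It stood at 364086 and 485869 CPM in the positive and 128592 and 145876 CPM in the negative libraries. The positive libraries were the higher pair, but the change of 1.63 ± 0.62 did not pass (edgeR adjusted p = 0.123). It passed in 8 of 16 alternative settings, among them DESeq2 and the total count as library size, and in none that left out a pros library. mir-7 took 27.7 and 32.9% of the hairpin counts of the positive libraries, against 10.6 and 11.4% in the negative ones. For pros-positive 2 the 95% Wilson interval was 32.83 to 32.89%, and such intervals and floors cover counting error only.

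The next 4 hairpins in abundance made up less of the positive libraries. mir-1, the muscle miRNA, took 9.37 and 13.3% against 18.1 and 19.2% of hairpin counts. mir-184 took 9.63 and 7.38% against 18.3 and 15.1%. mir-286 took 8.19 and 6.29% against 14.1 and 14.3%, and mir-5 took 7.64 and 7.56% against 10.2 and 11.3%. In each of these the negative libraries had the larger shares. Shares of a library sum to a fixed total, so the larger share of mir-7 in the positive libraries by itself lowers those of other hairpins. With mir-7 the 5 hairpins held 62.5 and 67.4% of the hairpin counts in the positive and 71.3 and 71.2% in the negative libraries. None of the 5 passed the test, and the scaled changes of mir-184 (-0.81) and mir-286 (-0.82) were under 1 log2 unit.

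The hairpins were then read by 11 lists, which are described by counts and medians, beside the median of -0.25 over all hairpins tested. Of 12 nervous system miRNAs, 3 passed, all higher: mir-87, mir-124 and mir-1000 (list median 0.40). mir-315, which activates Wingless signalling, was at 3320 and 3320 against 934 and 871 CPM and came close (1.88 ± 0.61, edgeR adjusted p = 0.0656). It passed in 10 of 16 alternative settings, DESeq2 among them, and in none that left out a pros library. The other 8 did not pass, and mir-137, mir-927, mir-929, mir-190, mir-219, mir-932 and mir-971 overlapped between the fractions. For mir-927 the values were 110 and 54.6 against 116 and 94.9 CPM.

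Of 9 miRNAs of sensory organs and neural precursors, mir-263b and mir-bft were higher and none was lower (median -0.44). Within this list the members parted: mir-7 and the mir-263 pair had their higher values in the positive libraries. In mir-9a, mir-9b and mir-9c the negative libraries were the higher pair. mir-79, also in this list, overlapped between the fractions, at 0.846 and 12.1 against 1.64 and 1.66 CPM. mir-9a, which restrains the number of sensory precursors by lowering senseless, was at 11302 and 10653 against 26472 and 29337 CPM (-1.35 ± 0.50, edgeR adjusted p = 0.107). It passed, lower, in 8 of 16 alternative settings. mir-9c was at 14035 and 16411 against 25990 and 32679 CPM and mir-279 at 938 and 909 against 1502 and 1534 CPM, and neither passed.

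Among the 8 hairpins of the mir-309 cluster only mir-3 passed (median -0.34). The 3 mir-6 copies, which share reads, were near -0.10 each. Of 9 tested K-box hairpins, mir-2c alone passed (median -0.37). In 6 of the 9 both negative libraries were the higher ones, as in 54 of all 148 tested hairpins (36.5%). Among the 6 was mir-2b-2, at 190 and 156 against 295 and 350 CPM. Of 5 epithelial and gut miRNAs, mir-31a and mir-31b were lower, and the list median was -1.27. mir-8, the fly member of the miR-200 family, stood at 2353 and 2097 against 5135 and 5611 CPM and did not pass (-1.27 ± 0.43, edgeR adjusted p = 0.0771). It passed, lower, in 5 of 16 alternative settings.

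No member passed in edgeR in the other 6 lists. An unadjusted p under 0.05 was found for 1 widely expressed miRNA and 1 of the let-7 complex, beside 26 of all 148 hairpins tested. DESeq2 called 1 widely expressed miRNA, lower, and none in the other 5, with no adjusted p for the let-7 complex. These lists were the mir-310 cluster (5 tested, median -0.49), Hox cluster miRNAs (4, 0.22), widely expressed miRNAs (9, -0.16), muscle miRNAs (2, -0.43), the mir-92 family (2, 0.60) and the let-7 complex. In the let-7 complex only mir-100 and mir-125 were matched by name, with at most 4.06 CPM in any of the 4 libraries. The hairpin of let-7 itself, named mir-let7, was missed by the list and is left out of its counts. It stood at 6.77 and 3.35 against 4.37 and 1.42 CPM and did not pass in edgeR. Among the widely expressed miRNAs, mir-ban (bantam), which promotes growth and blocks cell death, was at 2194 and 1880 against 4704 and 5917 CPM (-1.38 ± 0.47, edgeR adjusted p = 0.0771). It passed, lower, in 8 of 16 alternative settings. Among the Hox miRNAs, mir-10 was at 98966 and 124442 against 61738 and 69737 CPM (0.76 ± 0.59, adjusted p = 0.565).

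Outside the hairpins, 11726 features were tested and 284 passed (2.42%), 149 higher (1.27%) and 135 lower (1.15%) in the pros-positive fraction. With the total count as library size 226 passed, 74 higher and 152 lower. In the main fit 2012 of the 11726 had an unadjusted p under 0.05, and DESeq2 called 684. Such counts for single lists and classes below are to be read beside these. Protein-coding genes made up 267 of the 284, or 2.61% of 10239 tested, with 142 higher (1.39%) and 125 lower (1.22%). These values count short pieces of RNA that entered a small RNA library, and are not mRNA levels. Of these 267 genes, 24 shared an exon on the same strand with another gene, and none with a snoRNA, snRNA, tRNA or rRNA. Both positive libraries lay above both negative ones for 2357 features (20.1%) and below them for 2668 (22.8%).

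The count depended on single libraries. It was 775 without pros-positive 1, 107 without pros-positive 2, 45 without pros-negative 1 and 87 without pros-negative 2. Of the 59 features outside hairpins that are named here and passed, 16 passed in all 4 of these fits.

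Fragments of nerfin-1, a zinc finger gene switched on in neuroblasts and young neurons, had the smallest adjusted p of all. They stood at 144 and 127 CPM against 4.71 and 4.09 CPM (4.94 ± 0.41, edgeR adjusted p = 8.86e-07). nompA, which encodes a protein of the cap that ties sensory dendrites to the cuticle, was at 70.2 and 56.3 against 1.85 and 2.32 CPM (4.90 ± 0.67, adjusted p = 3.14e-04). tap, a basic helix-loop-helix gene of the nervous system, was at 21.5 and 23.3 against 0 and 1.77 CPM (4.51 ± 0.80, adjusted p = 0.00412). These 3 genes and scrt (72.6 and 86.6 against 2.69 and 5.86 CPM, 4.18 ± 0.46) passed in every fit with a library left out.

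Other genes named by fold change were scarcer. alrm, known as an astrocyte gene, had 173 and 31 counts in the positive and 0 in both negative libraries and was at least 44.1-fold higher (edgeR adjusted p = 0.00139). Oli, a basic helix-loop-helix gene, had 104 and 291 against 0 and 1 counts, a ratio of 256 (95% interval 45.7 to 10137). CG12911 had a ratio of 110 (19.5 to 4377). gsb-n, a gene of segment and neuroblast identity, was at 15.1 and 13.5 against 0.673 and 0.221 CPM. ftz, a pair-rule gene used again in the nervous system, was at 21.4 and 28.9 against 0.337 and 1.11 CPM. For all 5 the positive libraries were the higher pair.

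The neuroblast list had 19 genes, all tested. Of these 8 were higher and 1 was lower, and the list median was 2.19 against -0.0098 over all features outside hairpins. Beside pros, the marker of the sort itself, and scrt, the higher genes were ase, mira, insc, wor (3.17 ± 0.60), sna (2.05 ± 0.45) and SoxN (2.29 ± 0.60). ase, a proneural gene kept on in neuroblasts, stood at 8.15 and 24.1 against 0.168 and 0.442 CPM (5.57 ± 0.94, edgeR adjusted p = 0.00294). mira, the adaptor that carries Prospero into the daughter cell, was at 101 and 123 against 16.8 and 32.1 CPM (2.19 ± 0.39). insc, which orients the division, was at 38.6 and 28.9 against 6.90 and 4.87 CPM (2.52 ± 0.48), and its exons overlap those of sktl.

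The member that went the other way was sc, a proneural gene of early clusters, at 2.85 and 3.04 against 21.0 and 13.9 CPM (-2.56 ± 0.65, edgeR adjusted p = 0.0426). Its call ended whichever library was left out. In the same gene complex ac was at 5.54 and 9.12 against 1.01 and 1.88 CPM and l(1)sc overlapped between fractions, and neither passed. l(1)sc passed, lower, only without pros-positive 1, where the remaining positive library had 0 counts (edgeR adjusted p = 0.0260), and differences between these genes were not tested. dpn, the self-renewal factor, was at 24.5 and 21.7 against 8.08 and 7.63 CPM and came close (1.56 ± 0.44, adjusted p = 0.0636). Of the 9 calls of the list, 2 to 7 held when a library was left out, the fewest without pros-negative 1, where pros and scrt passed.

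The temporal series, the transcription factors that neuroblasts switch on in order, gave 4 higher of 6 tested genes and a median of 2.17. hb, the first factor, was at 38.2 and 61.5 against 8.75 and 5.97 CPM (2.76 ± 0.62, edgeR adjusted p = 0.0207). Kr, the next, was at 32.9 and 18.4 against 6.23 and 7.41 CPM (1.91 ± 0.40, adjusted p = 0.0149). The later factors pdm2 (18.8 and 23.7 against 3.20 and 4.53 CPM, 2.44 ± 0.52) and cas (19.1 and 20.0 against 2.69 and 1.77 CPM, 3.14 ± 0.57) passed as well. The last, grh, which is also used in epidermis, was at 21.8 and 15.5 against 23.9 and 24.5 CPM and did not pass (-0.38 ± 0.46). No call of the list held without pros-negative 1 or without pros-negative 2.

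Of 9 genes of ganglion mother cells and sensory precursors, 2 were higher (median 1.26). cpo was at 87.5 and 60 against 9.43 and 11.9 CPM (2.78 ± 0.38, edgeR adjusted p = 3.14e-04) and passed in every fit with a library left out. nvy was at 37.9 and 49.7 against 10.6 and 14.9 CPM (1.77 ± 0.40, adjusted p = 0.0236) and with a library left out passed only without pros-positive 1. The sensory precursor genes sens (1.14 and 2.12 against 4.21 and 4.53 CPM) and ato (1.47 and 1.29 against 3.37 and 3.65 CPM) had their higher values in the negative fraction, and neither passed.

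Genes of differentiated neurons were also among those higher in the pros-positive fraction, 7 of 13 tested, with none lower and a median of 1.67. elav, the RNA-binding protein used as a neuron marker, stood at 205 and 257 against 24.6 and 23.4 CPM (3.26 ± 0.35, edgeR adjusted p = 3.11e-05). Its relative fne was at 55.9 and 25.6 against 6.73 and 3.87 CPM (2.96 ± 0.44). Those that passed besides were futsch, a microtubule-associated protein, the synaptic genes brp, nSyb and Syx1A, and nrv3, with changes of 1.67 to 3.27. futsch and Syx1A share exons with Gr2a and eIF4EHP. The transmitter genes ChAT, Gad1 and VGlut did not pass, and ChAT and Gad1 overlapped between fractions, each with at most 2.20 CPM. Of the 7 calls, 3 to 6 held when a library was left out.

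**Figure D3:**
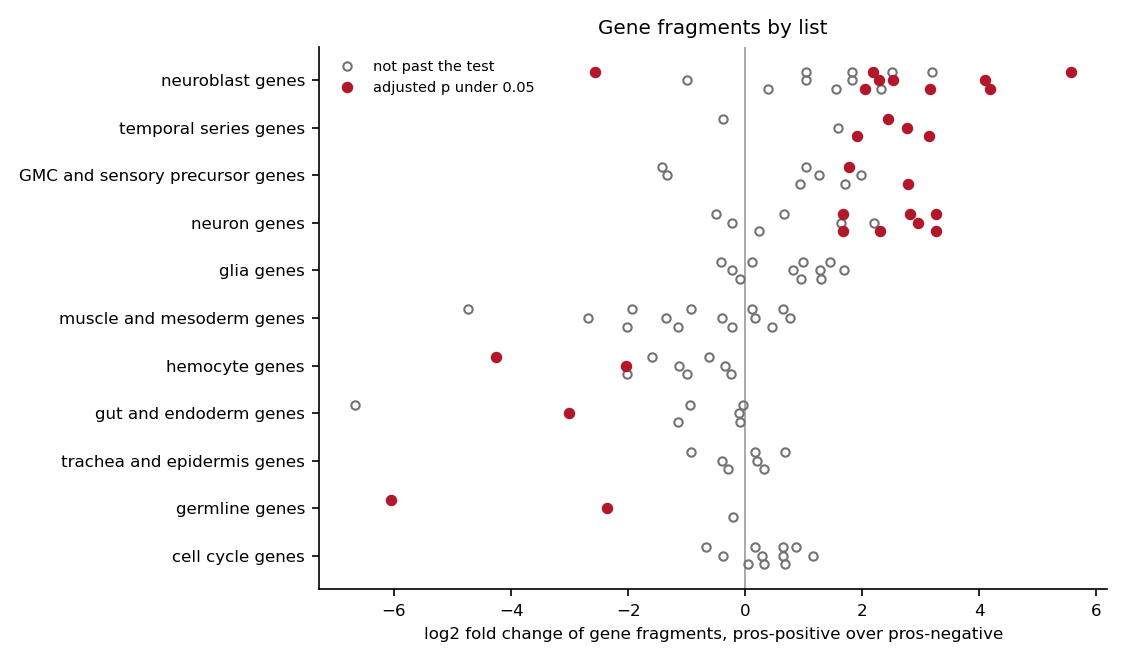
Each point is the log2 fold change of the fragments of 1 gene, pros-positive over pros-negative, by list; filled points passed the test. The filled points of the neuroblast, temporal, precursor and neuron lists lie at 1.67 or above except sc (-2.56), and those of the hemocyte, gut and germline lists lie at -2.04 or below.

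Among the 11 tested genes of the glia list, which does not hold alrm, none passed in edgeR (median 0.96), 2 had an unadjusted p under 0.05, and DESeq2 called 1, higher. The astrocyte gene alrm passed, as given above, and did so with each library left out. nrv2 was at 54 and 35.4 against 15.1 and 17.6 CPM (1.45 ± 0.42, edgeR adjusted p = 0.0704). In 8 of the 11 the change was above 0. Both positive libraries were the higher ones in 6 and both negative ones in 0, beside 20.1% and 22.8% of all features outside hairpins. The summed level of the glia list was 172 and 115 CPM in the positive and 92.4 and 118 CPM in the negative libraries, which overlapped. Among 14 muscle and mesoderm genes none passed in edgeR (median -0.66), 2 had an unadjusted p under 0.05, and DESeq2 called 1, lower. Here the summed levels were 233 and 197 against 217 and 232 CPM. Mef2, the muscle regulator, was at 10.2 and 8.48 against 22.2 and 19.4 CPM (-1.15 ± 0.33, adjusted p = 0.0692).

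Apart from sc, the lower calls of the gene lists fell in those of hemocytes, gut and germline. Of 9 hemocyte genes 2 were lower (median -1.12), and the summed level was 78.3 and 88.7 CPM against 290 and 286 CPM. Pxn, an extracellular peroxidase of blood cells, was at 0.978 and 0.645 against 21.2 and 10.9 CPM (-4.26 ± 0.69, edgeR adjusted p = 0.00186), and shares an exon with lncRNA:CR45660, which had at most 0.842 CPM. Col4a1, a collagen of basement membranes, was at 26.5 and 45.4 against 150 and 145 CPM (-2.04 ± 0.51, adjusted p = 0.0384) and did not pass with any library left out. Markers of hemocyte subtypes, lz, NimC1 and Hml, were at 2.69 CPM or less in all 4 libraries.

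Of 7 gut and endoderm genes GATAe alone was lower, at 2.53 and 3.87 against 29.8 and 21.8 CPM (-3.01 ± 0.64, edgeR adjusted p = 0.0162), and with a library left out it passed only without pros-negative 2. The list median was -0.94 and stayed there with lab, at 0 in both positive libraries, put at its bound. Of 3 tested germline genes 2 were lower (median -2.35). nanos was at 12.9 and 7.19 against 73.7 and 29.3 CPM (-2.35 ± 0.58, adjusted p = 0.0357), and pgc, which silences transcription in germ cells, had 3 and 0 against 83 and 44 counts, a ratio of 65.3 (21.8 to 321). Neither passed without pros-negative 1 or without pros-positive 2. None of 7 trachea and epidermis genes (median 0.16) and none of 11 cell cycle genes (median 0.33) passed in edgeR or DESeq2. In edgeR 1 and 2 of them had an unadjusted p under 0.05, CycA at 116 and 140 against 55.9 and 58.2 CPM among them (1.16 ± 0.45, adjusted p = 0.185).

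Among the lower genes named by fold change, pip, a sulfotransferase of embryonic axis formation and of salivary glands, was at 1.39 and 0.829 against 55.7 and 32.2 CPM (-5.28 ± 0.81, edgeR adjusted p = 0.00117). PH4alphaSG2, a prolyl hydroxylase of salivary glands, was at 0.245 and 0.184 against 6.56 and 6.30 CPM (-4.80 ± 1.00, adjusted p = 0.0142). nur was at 4.73 and 14.2 against 300 and 193 CPM (-4.71 ± 0.79, adjusted p = 0.00277). Gr59e, a gustatory receptor, had 6.68 and 0.461 CPM against 265 and 45.8 CPM (-5.42 ± 1.01, adjusted p = 0.00621). The negative libraries were the higher pair in each.

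The other names by that rule were CG12171, at least 36.5-fold lower with 0 counts in both positive libraries, CG43155 (-5.19 ± 0.72), CG33278 (-5.16 ± 0.90), CG43332 (-5.30 ± 1.07), CG12926 (-4.77 ± 1.27), the fumarylacetoacetase gene Faa (-5.06 ± 1.18) and the carboxylesterase gene clt (-4.68 ± 1.24). The higher names not yet given were CG14408 (4.15 ± 0.88) and grim (4.37 ± 1.12), an activator of cell death that overlaps lncRNA:CR45975. Each of the 2 passed in 1 of the 4 fits with a library left out, with adjusted p up to 0.135 for CG14408 and 0.230 for grim. clt did not pass with any library left out, and 2.52 and 22.3 CPM in its negative libraries differed widely.

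Among 249 snoRNA, which guide chemical changes of ribosomal RNA, 3 passed (1.2%), all higher. snoRNA:Psi18S-640d had 99 and 31 against 0 and 0 counts and was at least 28.1-fold higher (edgeR adjusted p = 0.00662). snoRNA:CD-24 had 51183 and 3357 counts against 1043 and 1521 (3.70 ± 0.93, adjusted p = 0.0393), and snoRNA:U31:54Ed had 49877 and 1921 against 927 and 1125 (3.92 ± 1.03, adjusted p = 0.0471). In both of these pros-positive 1 alone was high: without it the changes were 0.85 (adjusted p = 0.525) and 0.34 (adjusted p = 0.844).

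The same library stood apart in further features. snoRNA:Or-CD11a had 402711 counts in pros-positive 1, against 10623 in pros-positive 2 and 1948 and 2411 in the negative libraries (5.83, edgeR adjusted p = 0.0611). RpL28, whose exon holds it, had 418939, 13569, 2689 and 3772 counts in the same order, so that most of its counts are those of the snoRNA. RpL15 had 322896, 14733, 7437 and 10240 counts, and snoRNA:Me18S-G1620 had 210003, 20978, 12305 and 15341. snoRNA as a class summed to 246837 CPM in pros-positive 1, 107245 in pros-positive 2, and 146133 and 132772 CPM in the negative libraries, so the fractions overlapped. Ribosomal protein genes summed to 70568 and 12497 against 11054 and 12256 CPM. Most of the sum in pros-positive 1 was RpL28 (34153 CPM) and RpL15 (26323 CPM). The median change of the 84 tested genes of this class was 0.15. What sets this library apart was not tested.

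**Figure D4:**
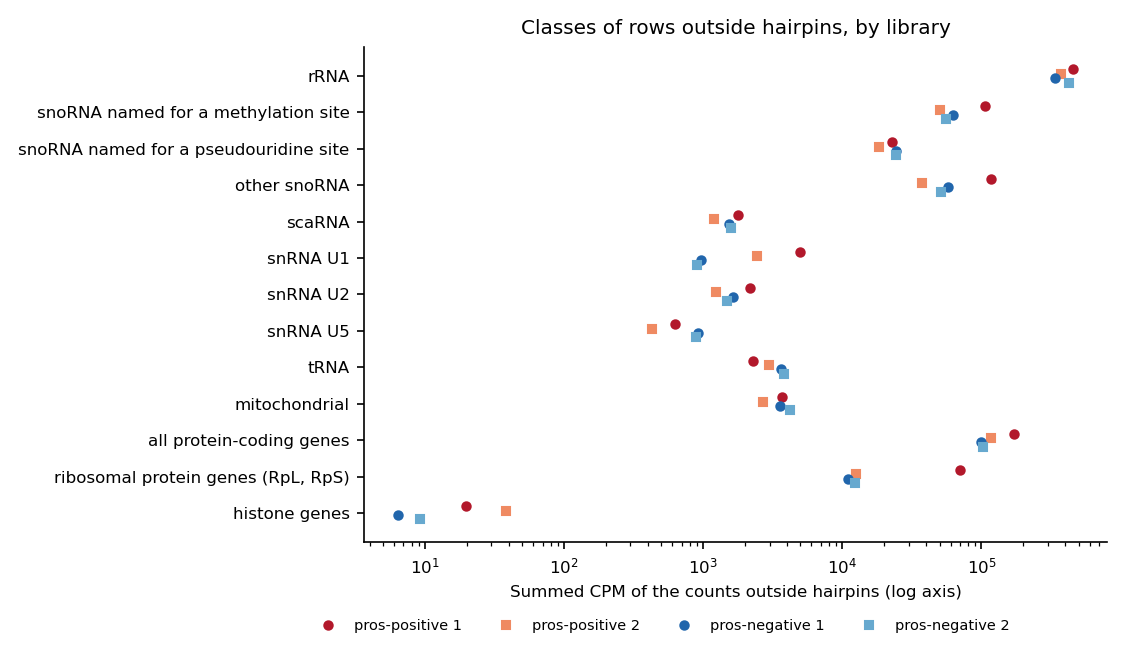
Points are single libraries and show the summed CPM of a class of features outside hairpins on a log axis. Library pros-positive 1 lies apart for snoRNA named for a methylation site, other snoRNA and ribosomal protein genes, the last mostly through RpL28 and RpL15. U1 snRNA and histone genes are higher in both positive libraries.

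Transfer RNA fragments were lower as a class in both positive libraries, at 2282 and 2983 CPM against 3610 and 3817 CPM, without overlap. Of 274 tRNA genes tested, 1 passed (0.365%): tRNA:Val-AAC-1-2, with 1 and 1 against 33 and 27 counts, a ratio of 46.3 (95% interval 12.3 to 391; edgeR adjusted p = 0.0287), a call that ended with any library left out. DESeq2 called 12 of the 274 tRNA genes, all lower, beside 684 of all 11726 features outside hairpins (313 higher and 371 lower). Isotypes went different ways in their sums. tRNA Leu summed to 254 and 123 against 427 and 445 CPM, and tRNA Glu to 228 and 366 against 581 and 581 CPM. tRNA Asn (25.1 and 35.9 against 14.5 and 21.8 CPM) and tRNA Ser (152 and 195 against 88.0 and 129 CPM) had their higher sums in the positive libraries. Copies of a tRNA share reads, and these sums carry no test.

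U1 snRNA, which marks the start of introns in splicing, summed to 5003 and 2453 CPM in the positive and 969 and 903 CPM in the negative libraries. All 5 of its gene copies had an unadjusted p under 0.05, and none passed (edgeR adjusted p = 0.105 to 0.169). The copies share reads and are not independent. U2, its partner at the other end of the intron, overlapped between fractions with 2159 and 1227 against 1626 and 1470 CPM. U5 went the other way, lower in both positive libraries, at 626 and 427 against 914 and 882 CPM. Of all 31 snRNA genes 0 passed in edgeR, and DESeq2 called 1, higher. An unadjusted p under 0.05 was found for 7 of the 31, beside 2012 of all 11726 features outside hairpins.

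Histone genes, which are transcribed in dividing cells, summed to 19.7 and 38.3 against 6.40 and 9.18 CPM, without overlap. None of 14 tested passed in edgeR (1 with an unadjusted p under 0.05) or in DESeq2, which gave 6 of them no adjusted p. Among the mitochondrial features 2 of 28 were lower (7.14%): mt:ND4L, with 0 and 0 against 17 and 28 counts, at least 23.1-fold, and mt:tRNA:Gly-TCC, with 0 and 0 against 10 and 12 counts, at least 11.3-fold. The call of mt:tRNA:Gly-TCC ended with any library left out (adjusted p = 0.0847 to 0.175), and mt:ND4L, which shares exon sequence with mt:ND4, passed in all 4 such fits. The class as a whole overlapped, at 3706 and 2691 against 3561 and 4214 CPM. Of 534 other noncoding RNAs 7 passed (1.31%), 2 higher (0.375%) and 5 lower (0.936%). The steeper of the higher ones, lncRNA:CR30009, was at 22.4 and 13.6 against 0.842 and 1.33 CPM (4.00 ± 0.56, edgeR adjusted p = 3.47e-04), and it passed with each library left out. None of 38 rRNA features passed in edgeR (7 with an unadjusted p under 0.05) or in DESeq2.

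The pros contrast was then set against the contrasts of the elav and repo sorts of the same stage, each marker-positive over its own marker-negative fraction, by testing the difference itself. The pros contrast differed from the elav contrast in 14 of 148 hairpins (9.46%), higher in 4 (2.7%) and lower in 10 (6.76%). It differed from the repo contrast in 13 (8.78%), higher in 3 (2.03%) and lower in 10 (6.76%). File headers name 2 mapping directories, 1 for the pros libraries and 1 for the others, and elav-positive 2 held only 70156 hairpin counts. A difference of processing or depth between the sorts therefore cannot be told apart from one of cells. Other scalings moved the split: the elav comparison gave 2 higher and 20 lower hairpins with total counts and 2 and 19 with TMM after the filter, and the repo comparison 10 higher and 14 lower with median-of-ratios factors and 4 and 5 with TMM lacking the 5 most abundant hairpins.

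mir-bft was higher in the pros contrast than in both others. Its change was 1.77 in the pros sort, -0.82 ± 0.52 in the elav sort and -1.11 ± 0.53 in the repo sort. The differences were 2.59 ± 0.75 (edgeR adjusted p = 0.0227) and 2.89 ± 0.75 (adjusted p = 0.0191). In the elav sort it averaged 16099 CPM in positive and 28392 CPM in negative cells, the opposite order to the pros sort. mir-124 was higher by 3.53 ± 0.89 in the pros than in the repo contrast (adjusted p = 0.0174), and by 1.96 ± 0.88 than in the elav contrast, which did not pass (adjusted p = 0.178). mir-7 differed by 2.96 ± 0.88 from the repo contrast (adjusted p = 0.0371), in which it was lower in positive cells by a change of -1.33 ± 0.62 that did not pass.

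For mir-87 and mir-263b, which had the largest changes of the pros contrast, the differences from the other sorts did not pass. For mir-87 the differences were -1.29 ± 0.69 from the elav contrast and 0.39 ± 0.64 from the repo contrast (edgeR adjusted p = 0.261 and 0.844). For mir-263b they were 1.74 ± 0.78 and 1.64 ± 0.78 (adjusted p = 0.177 and 0.220). mir-87 averaged 948 CPM in elav-positive and 910 CPM in repo-positive cells of this stage, against 16.5 and 50.5 CPM in the negative fractions.

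Several hairpins had larger changes in the elav sort than in the pros sort. mir-927 changed by 5.04 ± 0.77 in the elav and 2.73 ± 0.65 in the repo sort but by -0.35 ± 0.59 in the pros sort, so that the differences were -5.39 ± 0.96 and -3.08 ± 0.87 (edgeR adjusted p = 7.43e-04 and 0.0277). mir-137 differed by -6.47 ± 1.60 and -5.09 ± 1.29, and mir-190 and mir-219 differed from the elav contrast by -3.50 ± 0.86 and -5.02 ± 1.31. mir-276b, with 868 and 712 against 402 and 435 CPM without overlap in the pros sort, rose by 5.08 ± 0.66 in the elav sort, a difference of -4.16 ± 0.81 (adjusted p = 0.00154). In the repo sort mir-252 had a mean of 2488 CPM in the positive and 24.5 CPM in the negative fraction. In the pros sort it was at 155 and 75.7 against 73.8 and 38.4 CPM, and the difference from the repo contrast was -5.62 ± 0.85 (adjusted p = 1.30e-04).

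mir-1017 had opposite directions. It averaged 46.6 CPM in elav-positive and 23.0 CPM in repo-positive cells, with 0 and 0.352 CPM in their negative fractions, while both pros-positive libraries had no count. The difference passed against both sorts (edgeR adjusted p = 4.26e-04 and 3.00e-04) and with every pros library left out. The call of mir-252 against the repo contrast and those of mir-276b, mir-927 and mir-932 against the elav contrast also held in all 4 such fits.

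**Figure D5:**
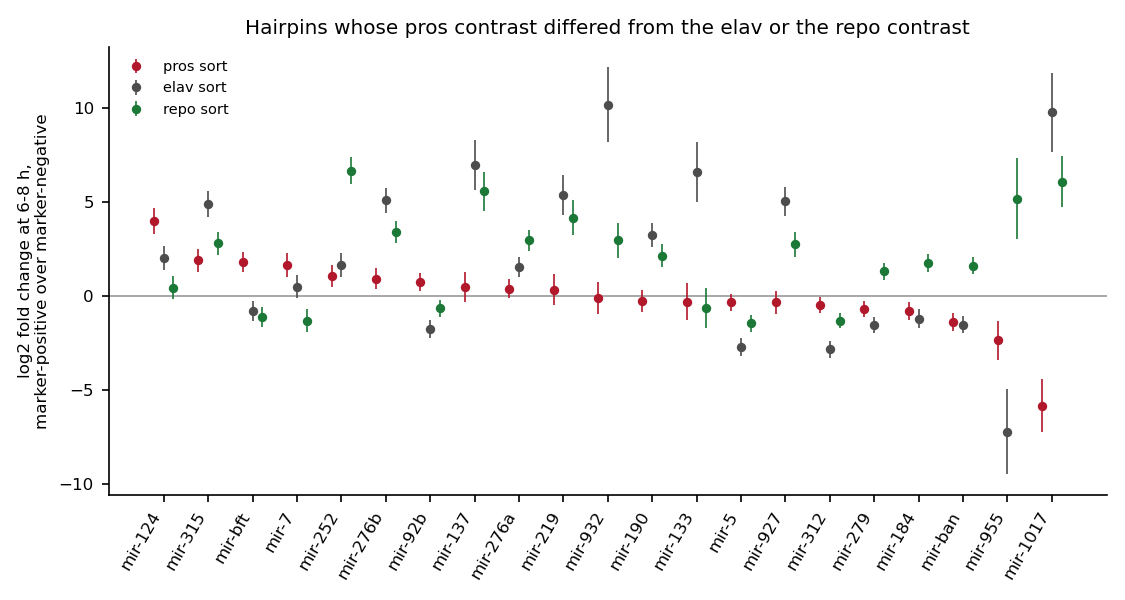
Points are log2 fold changes at 6-8 h, marker-positive over marker-negative, with standard errors, for 21 of the 22 hairpins whose pros contrast differed from the elav or the repo contrast; mir-929, at 0 CPM in both repo fractions, is left out. mir-bft is above 0 in the pros sort and below 0 in both others, and mir-1017 the reverse; fitted values of mir-1017, mir-932 and mir-955, at 0 counts in some fractions, depend on the prior count.

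The authors' deposited table for this sort pairs miRNAs with predicted target genes and gives both changes. It held 1027 pairs of 24 miRNAs (11 higher and 13 lower) and 573 genes, and every pair had opposite signs. Since the table holds no pair of like sign, its signs cannot be read as evidence that a miRNA acts on a target. The direction was read from the signs of the miRNAs, and the libraries behind its gene values were not analysed here. All 11 hairpins that passed here were in the authors' deposited table, and all 24 miRNAs had the same sign. This is no independent check, since the direction was read from those signs and the changes are of the same sort. The largest gap between the authors' log2 change and the one computed here was 0.0248, apart from mir-1017 (0.726), which has no count in 1 fraction.

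The pairs named in the authors' deposited table joined some genes already described. For mir-87 the target gene with the largest fall was Pxn, at -3.63 in the authors' deposited table and -4.26 among the fragments here. For mir-124 it was ana (anachronism), a glial inhibitor of neuroblast division, at -2.30 in the authors' deposited table, while its fragments changed by -0.39 and did not pass (edgeR adjusted p = 0.895). For mir-263b it was nos (nanos), at -3.42 in the authors' deposited table. For mir-1000 the first were CG1092 and Ppn, at -3.68 and -3.48 in the authors' deposited table. Here CG1092 had a ratio of 29.3 (9.54 to 146) in favour of the negative fraction, on 57 against 3 counts, and Ppn changed by -2.70 (edgeR adjusted p = 0.0333), a call that ended with any library left out. For mir-7 the table gives aop (yan), its classic target in the eye, at -1.52, and its fragments stood at 0.17 (edgeR adjusted p = 0.843). For the lower mir-1017 the gene with the largest rise was nerfin-1, at 5.94 in the authors' deposited table, and the next was CG12507, at 5.55. Fragments of CG12507 had a ratio of 33.7 (9.10 to 282) in favour of the positive fraction (edgeR adjusted p = 0.0471). Of the 573 genes 569 were tested as fragments here, and 86 passed (15.1%, beside 2.42% of all features outside hairpins). The genes of that table named here all had an authors' adjusted p under 0.05 between the same 2 fractions. The larger share therefore cannot be read as a result about miRNA targets.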

How the data were processed

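Small RNA libraries were prepared with NEBNext and read as single 51 nt reads, per the labels' protocols. The deposited tables hold estimated counts made by the authors: per the file headers, featureCounts 1.5.1 split multi-mapping reads into fractions and counted same-strand Ensembl 85 exons. Bowtie 1.1.2, SAMtools 1.8, DESeq2 and builds BDGP6 and dm6 are named in the submitters' processing notes. The authors also deposited log2 fold changes and p-values for miRNA and gene pairs.

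Counts were rounded, although the test had been planned for whole counts. Of 17559 features 17253 were named by the Ensembl 115 table. The 237 hairpins were fitted apart from the other features, of which 59 that overlap a hairpin were left out. edgeR 4.0.16 (R 4.3.3) was fitted over 20 libraries in 10 groups with TMM factors, filterByExpr and Benjamini-Hochberg correction at 0.05. With 10 residual degrees of freedom, the common biological coefficient of variation came to 0.545 (hairpins) and 0.512 (other features). TMM factors were computed before the filter. This order was kept after its calls and those of the reverse order had been seen, because its factors lay near the median-of-ratios factors. P-values measure the spread between libraries labelled as duplicates. The fits were tested on simulated data.

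Hairpins were named if they passed with no overlap and at least 10 CPM in the higher fraction. Other features needed 5 CPM, with up to 12 protein-coding genes per direction. List members, abundant hairpins and hairpins that differed between sorts were named too. mir-975, the features described for pros-positive 1, single tRNA, mitochondrial and noncoding features, and hid, rpr and skl were chosen after their values were seen. Members and lists were chosen with earlier results of these data known. Alternatives were DESeq2 1.42.0, other factors and filters, a replicate block and leaving out libraries.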

Additional observations from a re-analysis of the deposited data

Results flagged for a closer look

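The hairpins below were singled out because the pros contrast, as a log2 fold change of positive over negative cells, differed from that of another sort of the same stage by an edgeR test of the difference. Against the elav contrast the differences were -15.62 for mir-1017, 2.59 for mir-bft, -3.02 for mir-315, -4.16 for mir-276b, 2.50 for mir-92b, 2.36 for mir-312 and 2.38 for mir-5. They were -6.47 for mir-137, -5.39 for mir-927, -11.65 for mir-929, -3.50 for mir-190, -5.02 for mir-219, -6.92 for mir-133 and -10.29 for mir-932. Against the repo contrast they were 3.53 for mir-124, -11.92 for mir-1017, 2.89 for mir-bft, -2.99 for mir-ban, 2.96 for mir-7, -7.54 for mir-955 and -5.62 for mir-252. They were -2.48 for mir-276b, -2.56 for mir-184, -2.01 for mir-279, -2.57 for mir-276a, -5.09 for mir-137 and -3.08 for mir-927. The values of mir-1017, mir-929, mir-932 and mir-955 depend on the prior count, since a group was at 0, and are no measure of size. In mir-5 and mir-312 the pros sort was near 0 (-0.34 and -0.49), and their values in the elav sort were -2.72 and -2.85. mir-ban was at -1.38 in the pros and 1.61 in the repo sort. Of these 27 differences, 6 were called in every fit that left out a pros library, and mir-bft and mir-315 against the elav contrast and mir-276b, mir-184 and mir-279 against the repo contrast in none.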

How the results depend on the processing

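The 11 hairpins became 18 with DESeq2, 39 with only the 4 pros libraries fitted, 17 with the replicate block, 28 without both elav 6-8 h replicate 2 libraries, 30 with TMM after the filter (chosen after seeing the data; the median change moved by -0.71) and 0 with TMM from all features (median moved by 0.38), and 3 to 5 with a library left out. The other 6 settings gave 12 to 16. Outside hairpins the 284 became 486 with no filter (more features tested), 684 with DESeq2 and 68 with only the 4 pros libraries (fewer samples), and 45 to 775 with a library left out, most without pros-positive 1 (199 higher and 576 lower). The 14 differences from the elav contrast became 22 with total counts, 22 with the replicate block, 23 without both elav 6-8 h replicate 2 libraries and 1 with TMM from all features, and 6 to 14 with a library left out. The 13 from the repo contrast became 24 with median-of-ratios factors, 20 with DESeq2, 20 with the replicate block, 26 without both elav 6-8 h replicate 2 libraries and 1 with TMM from all features, and 2 to 13 with a library left out. The cause of these shifts was not tested. The main fit used no pairing by replicate number. Deviations of same-numbered pros libraries had a correlation of -0.125 over hairpins and 0.022 over other features. As each fraction gives a single difference between its libraries, this cannot decide whether the numbers pair the samples. With the pros-negative numbers crossed, the block gave 16 hairpins and 286 other features. No called value of a named feature changed sign under any setting run. Of their values under the settings that keep all pros libraries, 122 lost and 139 gained a call and 2688 did neither. Depth limits mir-1017, mir-975 and the features with few counts in 1 fraction.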

Other observations

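Genes that start cell death were not in the lists and were looked at after grim had been seen among the higher genes. Fragments of skl (sickle) had 15 and 30 counts in the pros-positive and 0 in both pros-negative libraries, at least 9.72-fold higher (edgeR adjusted p = 0.0493). The call of skl ended in 8 of 16 alternative settings (adjusted p up to 0.369), among them 3 of the 4 fits with a library left out, and that of grim ended in 4 of 16 (up to 0.230), 3 of them fits with a library left out. Fragments of rpr (reaper) stood at 6.77 and 7.28 against 9.59 and 6.97 CPM and overlapped (-0.23 ± 0.79, adjusted p = 0.926). Fragments of hid were at 9.05 and 14.8 against 22.1 and 20.3 CPM and did not pass (-0.83 ± 0.43, adjusted p = 0.338). Differences between these genes were not tested.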
